A study of Mus musculus with 6 samples.

Results

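The expression of 7 genes of reelin signalling and of Cajal-Retzius cells was examined in sorted embryonic Sst-lineage cells with and without Dnmt1 deletion. They were chosen by symbol: Reln, Vldlr, Lrp8, Dab1, Trp73, Nhlh2 and Nhlh1 are 7 of the 57132 genes listed, and each matched 1 row. Total RNA had been sequenced from tdTomato-positive cells sorted from the cortex of E14.5 mouse embryos. The 3 Dnmt1 KO libraries came from Sst-Cre/tdTomato embryos with floxed Dnmt1 alleles, and the 3 control libraries from Sst-Cre/tdTomato embryos without them, so that Cre and the reporter are common to both groups. Cre is driven from the Sst locus, in postmitotic cells, and any cell that has ever expressed it keeps the reporter. The sample titles give the genotype, while the genotype field reads Sst-Cre/tdTomato for all 6. RNA came from pools of 50000 cells, the 3 samples of a genotype were processed separately, and cells had been pooled over several embryos. Whether samples of a genotype shared embryos is not stated. Each p-value below thus reflects library-to-library spread alone, and that spread may be technical.

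Reelin, the product of Reln, is a large secreted glycoprotein that Cajal-Retzius cells release in the marginal zone of the embryonic cortex and that some interneurons also make. It binds the lipoprotein receptors VLDLR and LRP8 on other cells. Binding leads to tyrosine phosphorylation of the adaptor DAB1, which drives the positioning of migrating neurons. Trp73, a member of the p53 family, and the bHLH genes Nhlh1 and Nhlh2 encode transcription factors, of which Trp73 is a marker of Cajal-Retzius cells and the Nhlh genes are active in newly born neurons.

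The enzyme targeted here methylates cytosine in CpG dinucleotides. The CpG content before the start site is therefore shown for the ligand gene and for the members with the largest losses. The lines below give the 250 bases upstream of the start of the Ensembl canonical transcript in GENCODE M39 (GRCm39), 5′ to 3′ on the gene's strand, with each CpG in capitals.
Reln, chr5:22549701-22549950, minus strand: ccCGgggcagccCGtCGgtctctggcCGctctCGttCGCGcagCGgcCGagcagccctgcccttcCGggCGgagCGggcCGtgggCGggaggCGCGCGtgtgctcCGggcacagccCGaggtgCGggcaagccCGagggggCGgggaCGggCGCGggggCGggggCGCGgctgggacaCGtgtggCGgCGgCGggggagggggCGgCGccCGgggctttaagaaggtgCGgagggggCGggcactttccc
Dab1, chr4:104224442-104224691, plus strand: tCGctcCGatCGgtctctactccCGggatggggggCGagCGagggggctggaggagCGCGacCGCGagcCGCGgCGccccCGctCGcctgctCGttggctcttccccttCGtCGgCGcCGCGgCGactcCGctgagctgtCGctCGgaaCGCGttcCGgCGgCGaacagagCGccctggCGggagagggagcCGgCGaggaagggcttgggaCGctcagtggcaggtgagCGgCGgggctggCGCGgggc
Nhlh2, chr3:101917142-101917391, plus strand: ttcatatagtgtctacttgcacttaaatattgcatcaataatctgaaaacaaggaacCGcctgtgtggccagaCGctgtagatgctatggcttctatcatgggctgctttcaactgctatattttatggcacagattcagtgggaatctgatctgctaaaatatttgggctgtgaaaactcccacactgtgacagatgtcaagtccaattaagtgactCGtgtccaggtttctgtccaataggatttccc
The Reln window held 37 CpG and the Dab1 window 39, and 1.88% and 1.30% of the 11990 windows of tested protein-coding genes held as many or more. The Nhlh2 window held 3, and 95.2% of windows held as many or more. The windows of Vldlr, Trp73, Lrp8 and Nhlh1 held 16, 6, 4 and 2 CpG, against a median of 13 over all windows. Of the called losses, Dab1 had 39 CpG, Lrp8 4 and Nhlh2 3. The median was 13 for genes called lower, for genes called higher and for genes not called. Whether CpG content bears on the losses was not tested. These counts depend on the start site: in the RefSeq table (GRCm38.p6) the upstream window of Lrp8 held 18, 5 or 2 CpG at its 3 listed starts, that of Dab1 40 or 10, and that of Trp73 31 or 6. Methylation itself was not measured in these libraries. The study measured it in sorted cells of the basal telencephalon. There it reports reduced methylation around the Reln start, with sites of both loss and gain in Reln, and raised Reln expression.

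Depth ran between 7154043 and 10089981 recovered reads, with 21316 to 22792 genes detected. A count of 0 allows up to 3 reads, or 2.22 to 3.70 normalized counts, for counting error only. Dnmt1 stood at 2411, 2243 and 2255 normalized counts in Dnmt1 KO libraries, against 3025, 2539 and 2741 in control libraries, a log2 fold change of -0.26 (adjusted p = 0.0218, limma). Reads outside the floxed part still count toward this gene. As markers of the sorted cells, 12 genes of Sst-lineage interneurons were summed, and none was at 0. The sums were 27754 to 28497 normalized counts in Dnmt1 KO libraries and 21195 to 22167 in control libraries. Of these 12 genes 11 were higher in Dnmt1 KO, against 7.64% of all tested genes, and Sst itself was not called. The study reports several of them, Lhx6 and Maf included, as altered in Dnmt1 KO cells from the cortex. Their sums therefore do not measure the purity of the sort. Summed normalized counts of 9 radial glia genes were 5986 to 6166 in Dnmt1 KO libraries and 8280 to 8958 in control libraries. Those of 5 diencephalic neuron genes were 525 to 619 in Dnmt1 KO libraries and 2053 to 2203 in control libraries. Of these, Lhx2 alone made up 404 to 482 in Dnmt1 KO libraries and 543 to 607 in control libraries. The sums of 8 cell cycle genes were 2948 to 3046 in Dnmt1 KO libraries and 4110 to 4435 in control libraries. In these 3 lists 6 of 9, 5 of 5 and 7 of 8 genes were lower in Dnmt1 KO, against 11.6% of all tested genes. No listed gene was at 0 in every library. In sorted bulk samples, fewer cells of a type and less RNA per cell cannot be told apart.

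The comparison asks which parts of reelin signalling differ between Dnmt1 KO and control cells sorted from the cortex. Of the 7 genes, 3 were lower in Dnmt1 KO, namely the adaptor Dab1, the receptor Lrp8 and the transcription factor Nhlh2, none was higher, and 4 were not called (limma, adjusted p under 0.05 over 14126 genes). Over all tested genes 19.2% were called, 7.64% higher (1079 genes) and 11.6% lower (1638 genes). This balance depends on the scaling and on single libraries: with libraries scaled by total reads 5046 genes were higher and 1062 lower, and of the 7 genes 2 were higher (Reln and Vldlr) and 1 lower (Dab1). Over all genes 569 were higher without Dnmt1 KO replicate 2 and 531 without Dnmt1 KO replicate 3. The ligand Reln and the receptor Vldlr had slightly higher means in Dnmt1 KO without passing. All 7 were above the minimum mean of 10 normalized counts, and no library was at or under the floor for any of them. For 4 of the 7 genes the groups did not overlap, against 36.7% of all tested genes: Dab1, Lrp8 and Nhlh2 with Dnmt1 KO lower and Reln with Dnmt1 KO higher. Without control replicate 3, 1 of the 7 genes was lower (Dab1), since the calls of Lrp8 and Nhlh2 were lost. The plot of each gene by library shows these values.

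**Figure D1:**
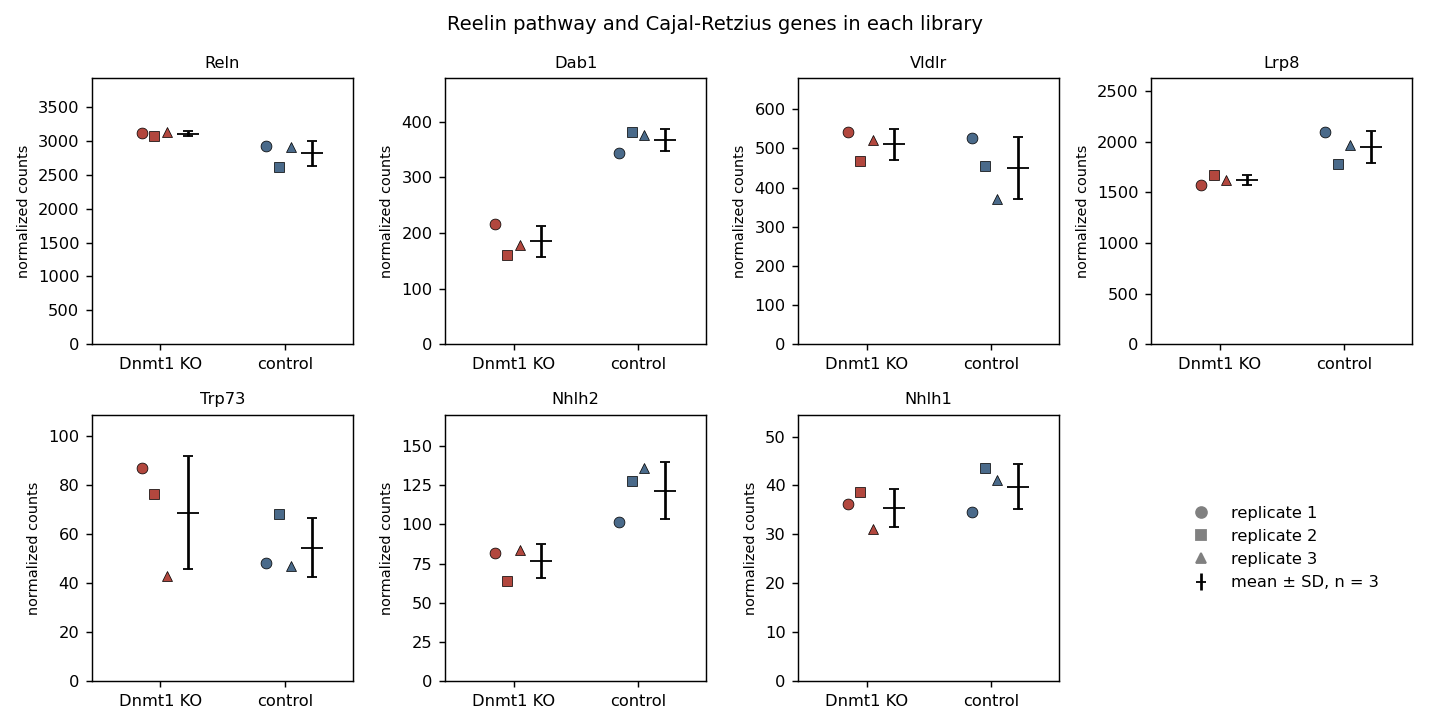
Normalized counts of the 7 genes (y axis, from 0) in the 3 Dnmt1 KO and the 3 control libraries (x axis). Each point is 1 library and the bars give the mean ± SD. Dab1 reaches at most 216 in Dnmt1 KO and at least 344 in control, while the Vldlr, Trp73 and Nhlh1 points of both groups overlap.

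Reln (chromosome 5, 22089452 to 22549700 on the minus strand) encodes the ligand. Its mean normalized count was above that of 97.9% of tested genes. This rank is not corrected for length, and the union of its exons is long, at 23738 bases. It stood at 3115, 3076 and 3139 normalized counts in Dnmt1 KO libraries, against 2932, 2611 and 2906 in control libraries. Every Dnmt1 KO library lay above every control library, and the Dnmt1 KO libraries were closer to each other (coefficient of variation 1.02%) than the control libraries (6.33%). The mean was 3110 ± 31.9 in Dnmt1 KO and 2816 ± 178 in control (SD over 3 libraries each), a fold change of 1.11 with a 95% interval of 1.01 to 1.22. With a log2 fold change of 0.14 (SE 0.06) it did not pass (adjusted p = 0.131, limma). The interval reaches from almost no change to a gain of 1.22-fold. Reln passed as higher when libraries were scaled by total reads (0.40 on the log2 scale, adjusted p = 0.000418), which moved the median of all genes from 0.02 to 0.27, and after quantile normalization (0.25, adjusted p = 0.00781). An antisense noncoding gene on the opposite strand, Gm10475, overlaps an exon of Reln and averaged 1.06 normalized counts.

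Of the reelin receptors Lrp8 fell, whereas Vldlr did not pass. Lrp8, the receptor also known as APOER2 (chromosome 4, 107659066 to 107734038, plus strand) stood at 1572, 1668 and 1626 normalized counts in Dnmt1 KO libraries, against 2100, 1778 and 1965 in control libraries. The groups did not overlap, with 1668 as the highest Dnmt1 KO value and 1778 as the lowest control value. The mean was 1622 ± 48.4 in Dnmt1 KO and 1947 ± 162 in control (SD over 3 libraries each). The log2 fold change was -0.26 (SE 0.07; limma, adjusted p = 0.0215) or a fold change of 0.835 with a 95% interval of 0.750 to 0.928. This call held in 13 of 19 alternatives. It was lost when Dnmt1 KO replicate 1 (adjusted p = 0.0682) or 3 (0.0748) was left out, when control replicate 1 (0.0588) or 3 (0.0614) was left out, after quantile normalization (0.0821) and when libraries were scaled by total reads (-0.0024 on the log2 scale, adjusted p = 0.983).

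Vldlr (chromosome 19, 27193862 to 27231631, plus strand), the receptor with a role in halting migrating neurons beneath the marginal zone, stood at 543, 467 and 523 normalized counts in Dnmt1 KO libraries, against 527, 454 and 370 in control libraries. The groups overlapped, since control replicate 1 lay above Dnmt1 KO replicates 2 and 3. The mean was 511 ± 39.2 in Dnmt1 KO and 450 ± 78.8 in control (SD over 3 libraries each), with a fold change of 1.14 (95% interval 0.960 to 1.36, adjusted p = 0.280, limma). The interval lies above the loss seen for Dab1 and takes in a gain of 1.36-fold. Vldlr passed in 1 of 19 alternatives, the one scaled by total reads (0.45 on the log2 scale, adjusted p = 0.0104). Both receptors together summed to 2133 ± 16.8 normalized counts in Dnmt1 KO libraries, against 2398 ± 205 in control libraries (SD over 3 libraries each).

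Dab1 (chromosome 4, 103476556 to 104602041, plus strand), the adaptor that relays the signal inside the receiving cell, had the largest loss of the 7 genes. It stood at 216, 161 and 178 normalized counts in Dnmt1 KO libraries, from 166 to 240 reads, against 344, 382 and 375 in control libraries, from 279 to 404 reads. All 3 Dnmt1 KO libraries were far below all control libraries. The mean was 185 ± 28.3 in Dnmt1 KO and 367 ± 20.1 in control (SD over 3 libraries each). The fold change was 0.501, with a 95% interval of 0.420 to 0.597 (log2 fold change -0.997, SE 0.12, adjusted p = 5.88e-05, limma). The call held in 19 of 19 alternatives, at log2 fold changes from -1.11 to -0.74. Radial glia and diencephalic neuron genes were lower in the same libraries, by a median log2 fold change of -0.62 and -3.80, and their part in the loss of Dab1 was not tested.

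**Figure D2:**
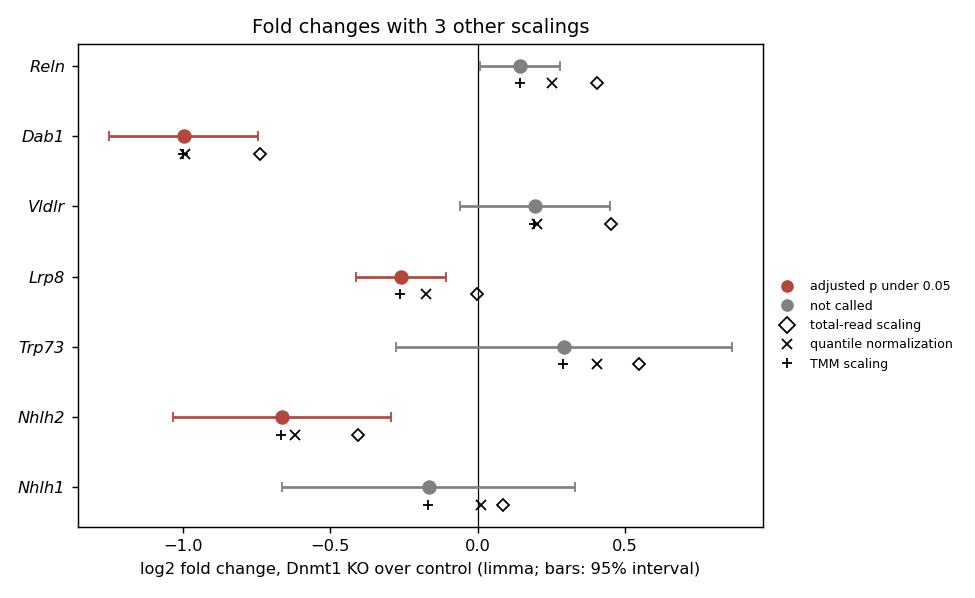
Log2 fold changes of Dnmt1 KO over control (x axis) for the 7 genes (rows), with 95% intervals from limma; red points passed at an adjusted p under 0.05. The small symbols under each bar give 3 other scalings. Dab1 and Nhlh2 stay left of 0 under all of them, Lrp8 reaches 0 under scaling by total reads, and Nhlh1 changes sign.

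Ratios of reads within a library do not depend on how libraries are scaled, and 6 were computed after the values above had been seen. Per Reln read there were 0.0693, 0.0522 and 0.0566 Dab1 reads in Dnmt1 KO libraries, against 0.117, 0.146 and 0.129 in control libraries. The highest Dnmt1 KO ratio was below the lowest control ratio. Lrp8 reads per Reln read were 0.505, 0.542 and 0.518 in Dnmt1 KO libraries, against 0.716, 0.681 and 0.676 in control libraries, a difference of -0.41 on the log2 scale. These groups were separated by more than their spread, 0.522 ± 0.0191 in Dnmt1 KO and 0.691 ± 0.0219 in control (SD over 3 libraries each). Vldlr reads per Lrp8 read were 0.346, 0.280 and 0.321 in Dnmt1 KO libraries, against 0.251, 0.255 and 0.188 in control libraries. In other words, Vldlr made up 24.0% ± 1.93 of the reads of both receptors in Dnmt1 KO and 18.8% ± 2.53 in control (SD over 3 libraries each). Dab1 reads per Lrp8 read also differed without overlap, by -0.74 on the log2 scale, whereas Vldlr reads per Reln read overlapped (0.164 ± 0.0114 in Dnmt1 KO and 0.160 ± 0.0288 in control). In an exact two-sided permutation test the 5 ratios without overlap reached p = 0.1, the smallest value that 3 against 3 libraries allow (adjusted p = 0.12 over 6 ratios), and Vldlr per Reln had p = 0.9.

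**Figure D3:**
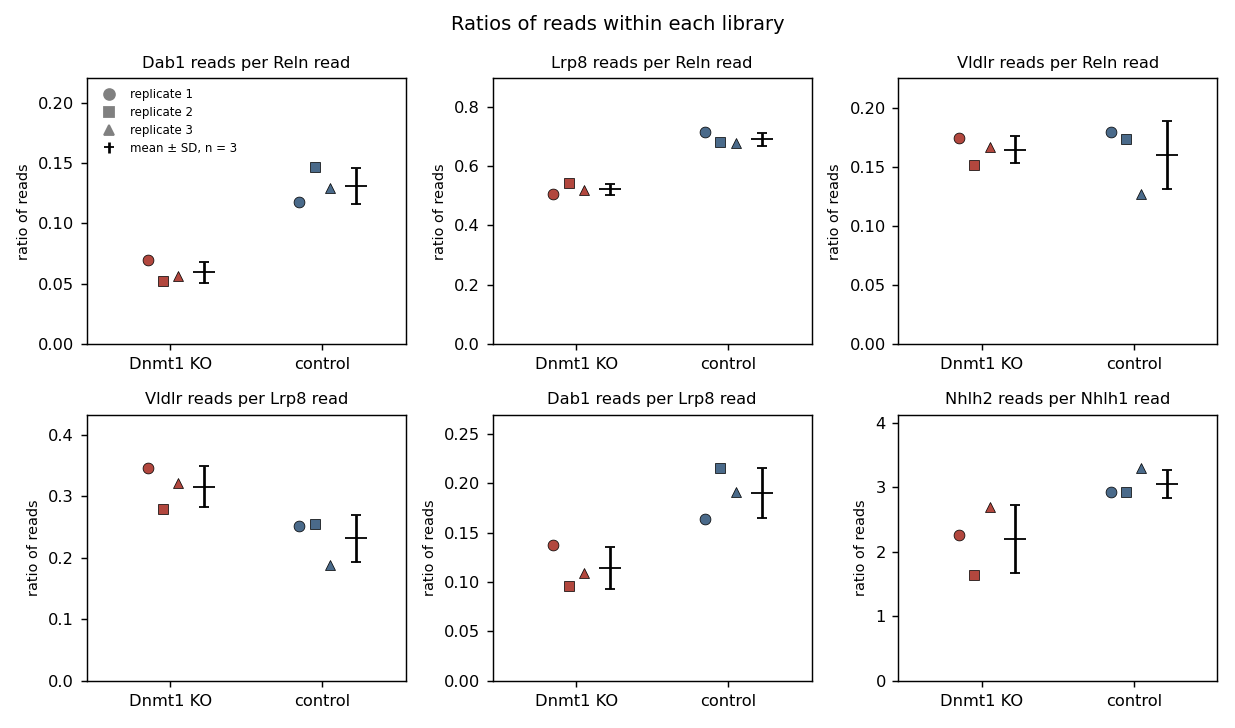
Ratios of recovered reads within each library (y axes, from 0) for 6 gene pairs in Dnmt1 KO and control libraries. Points are libraries and bars the mean ± SD. The Dnmt1 KO points lie below the control points for Dab1 per Reln, Lrp8 per Reln, Dab1 per Lrp8 and Nhlh2 per Nhlh1, above them for Vldlr per Lrp8, and among them for Vldlr per Reln.

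Of the transcription factors, Nhlh2 fell. Nhlh2 (chromosome 3, 101917392 to 101922808, plus strand), a bHLH factor of newly born neurons that also has a role in hypothalamic neurons, stood at 81.6, 63.9 and 83.6 normalized counts in Dnmt1 KO libraries, against 101, 128 and 136 in control libraries. The groups did not overlap. The mean was 76.4 ± 10.9 in Dnmt1 KO and 122 ± 18.1 in control (SD over 3 libraries each), a fold change of 0.631 with a 95% interval of 0.489 to 0.816 (log2 fold change -0.66, SE 0.17, adjusted p = 0.0163, limma). These values rest on 66 to 113 reads in Dnmt1 KO libraries and on 82 to 135 in control libraries. The call held in 16 of 19 alternatives and was lost without Dnmt1 KO replicate 2 (adjusted p = 0.0721), without control replicate 3 (0.0641) and when libraries were scaled by total reads (-0.41 on the log2 scale, adjusted p = 0.0661). Diencephalic neuron markers were lower in the same libraries (5 of 5). So were striatal projection neuron (4 of 5 tested), cell cycle (7 of 8) and radial glia genes (6 of 9, with 1 higher). Sst-lineage genes were higher (11 of 12). The part of these cells in the loss of Nhlh2 was not tested.

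Its paralogue Nhlh1 (chromosome 1, 171879859 to 171885140, minus strand) was the least abundant of the 7 in raw level, with 28 to 46 reads per library. It stood at 36.1, 38.7 and 31.1 normalized counts in Dnmt1 KO libraries, against 34.6, 43.5 and 41.2 in control libraries. The groups overlapped, and the fold change was 0.891 with a 95% interval of 0.632 to 1.26 (log2 fold change -0.17, adjusted p = 0.665, limma), and its sign turned after scaling by total reads (0.086) and after quantile normalization (0.011). There were 2.26, 1.65 and 2.69 Nhlh2 reads per Nhlh1 read in Dnmt1 KO libraries, against 2.93, 2.93 and 3.30 in control libraries, with no overlap between the groups.

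Trp73 (chromosome 4, 154140706 to 154224665, minus strand) stood at 86.7, 76.4 and 42.9 normalized counts in Dnmt1 KO libraries, against 48.2, 68.1 and 46.8 in control libraries. It had the widest spread of the 7 genes, with a coefficient of variation of 33.3% in Dnmt1 KO, where replicate 3 lay below every control library and replicates 1 and 2 lay above them. The fold change of 1.23 had a 95% interval of 0.826 to 1.82 (log2 fold change 0.29, adjusted p = 0.480, limma), so that a small loss and a gain of up to 1.82-fold both lay within it, at a depth of 39 to 84 reads per library. Without Dnmt1 KO replicate 3 the log2 fold change was 0.60, and it did not pass in any of 19 alternatives.

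Levels of different genes were compared per kilobase of exon, with the union of the annotated exons of each gene. In Dnmt1 KO the order was Reln (131 ± 1.34 normalized counts per kilobase), Lrp8 (124 ± 3.71), Vldlr (50.3 ± 3.86), Dab1 (18.2 ± 2.78), Nhlh1 (14.3 ± 1.57), Nhlh2 (14.1 ± 2.01) and Trp73 (12.4 ± 4.14; SD over 3 libraries each). In control it was Lrp8 (149 ± 12.4), Reln (119 ± 7.51), Vldlr (44.3 ± 7.75), Dab1 (36.2 ± 1.98), Nhlh2 (22.4 ± 3.34), Nhlh1 (16.1 ± 1.88) and Trp73 (9.81 ± 2.16; SD over 3 libraries each). Neighbours whose libraries overlapped were Vldlr and Dab1 in control, and Nhlh1, Nhlh2 and Trp73 in Dnmt1 KO. In Dnmt1 KO Vldlr and Dab1 were apart, with 46.0 to 53.4 and 15.8 to 21.3 per kilobase. Dividing by the longest transcript instead put Reln and Lrp8 side by side in control (241 ± 15.2 and 240 ± 19.98 per kilobase) and Dab1 above Vldlr (65.8 ± 3.60 and 53.8 ± 9.42). In Dnmt1 KO Reln came first under both lengths.

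Signalling partners of the reelin pathway were called about as often as all tested genes. Of 28 tested partners 4 were higher and 2 lower in Dnmt1 KO (21.4%, against 19.2% of all tested genes), and the median log2 fold change was 0.01, against 0.02 over all tested genes. The higher ones were Cdk5r1, the activator of the kinase CDK5 (2205 ± 84.5 normalized counts in Dnmt1 KO libraries, against 1607 ± 72.0 in control libraries; SD over 3 libraries each; log2 fold change 0.46, adjusted p = 0.000243, limma), Cdk5 itself (0.34), the adaptor Nck2 (0.44), which binds phosphorylated DAB1, and the actin-severing cofilin gene Cfl1 (0.19). The lower ones were Pik3r1, a regulatory subunit of PI3 kinase (-0.38), and Limk1, the kinase that inactivates cofilin (-0.32). Genes for the kinases that phosphorylate DAB1 had log2 fold changes of -0.13 (Fyn, adjusted p = 0.242) and -0.12 (Src, 0.405), and Dcx, the most abundant partner per kilobase after Cfl1, one of 0.15 (0.0947). Fyn and Src were chosen after their values were seen. With libraries scaled by total reads 15 partners were higher and 0 lower. There were 2 higher partners without each library in turn other than control replicate 1, and 1 lower partner without Dnmt1 KO replicate 2 or 3 or control replicate 1 or 3.

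Other ligands of the receptors and their relatives split. Of 13 genes 12 were tested, 2 of them were higher and 3 lower (41.7% called, against 19.2% of all tested genes), and Adamts2 was below the minimum. With libraries scaled by total reads 4 were higher. Thbs1, which encodes a thrombospondin that binds both reelin receptors, rose and stood at 1286, 1356 and 1330 normalized counts in Dnmt1 KO libraries, against 767, 717 and 739 in control libraries (log2 fold change 0.84, SE 0.07, adjusted p = 1.61e-06, limma). Thbs1 and the large endocytic receptor gene Lrp1 (-0.12, adjusted p = 0.181) were the most abundant of this list per kilobase. Apoe, whose product is an apolipoprotein that both receptors also bind, rose as well (0.46), and 1 gene of the list was higher without Dnmt1 KO replicate 2 or control replicate 2 or 3. Spon1, whose product F-spondin is a ligand of LRP8, stood at 63.0, 34.8 and 57.7 in Dnmt1 KO libraries, against 162, 140 and 151 in control libraries (log2 fold change -1.57). The called ligand genes changed in both directions, Thbs1 and Apoe up and Spon1 down, each without overlap between groups. In the whole list 4 genes lay above and 4 below without overlap, and 36.7% of all tested genes did not overlap. Of the receptor relatives, Lrp2 (-1.76) and Lrp4 (-0.84) fell. The reelin-cleaving protease gene Adamts3, chosen after its values were seen, did not pass (-0.08 on the log2 scale, adjusted p = 0.807).

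Among 12 other markers of Cajal-Retzius cells 5 were lower and 1 higher while 6 did not pass (50% called, against 19.2% of all tested genes). The median log2 fold change of the list was -0.50, against 0.02 over all tested genes. Their summed level was 1645 to 1752 normalized counts in Dnmt1 KO libraries and 1937 to 2204 in control libraries, and none was at 0. Most of this sum came from Cacna2d2 (mean 651 in Dnmt1 KO and 734 in control), Cxcr4 (401 and 216) and Tbr1 (304 and 402). It therefore does not measure the content of Cajal-Retzius cells. The COE factor genes fell most: Ebf1 stood at 14.46, 20.3 and 17.0 normalized counts in Dnmt1 KO libraries, against 152, 117 and 119 in control libraries (log2 fold change -2.84). Ebf3 (-2.33) and Ebf2 (-1.98) fell as well, as did the LIM-homeodomain gene Lhx1 (-1.55) and the T-box gene Tbr1 (-0.41). Some of these folds rest on few Dnmt1 KO reads: 20, 40 and 74 for Ebf3, 12, 11 and 12 for Ebf2, and 17, 7 and 7 for Lhx1. The 95% interval of Lhx1 on the log2 scale was -2.49 to -0.61. The lower genes are not restricted to Cajal-Retzius cells: Ebf1 is also listed for striatal projection neurons and Tbr1 for excitatory neurons. Cxcr4, the chemokine receptor of both Cajal-Retzius cells and migrating interneurons, rose (log2 fold change 0.89, adjusted p = 5.83e-05, limma), with 376, 425 and 403 in Dnmt1 KO libraries, against 231, 228 and 189 in control libraries. The calcium channel subunit gene Cacna2d2, the most abundant marker per kilobase beside Cxcr4, did not pass (-0.16, adjusted p = 0.302). Of the 7 genes, Reln and Trp73 were not called in the main fit. The interval of Trp73, 0.826 to 1.82 as a fold change, took in both a loss and a gain. The part of these Cajal-Retzius markers in the results for the 7 genes was not tested.

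The Nhlh genes belong to the setting of newly born neurons, of which 11 other genes were tested. Of these 2 were lower and 1 higher while 8 did not pass (27.3% called, against 19.2% of all tested genes), and the list had a median log2 fold change of -0.10. Insm1, a zinc finger factor of neuronal progenitors, fell (98.98 ± 4.63 normalized counts in Dnmt1 KO libraries, against 145 ± 5.27 in control libraries; SD over 3 libraries each; log2 fold change -0.55), and so did the proneural gene Neurog2 (-0.29, adjusted p = 0.0461, limma). Neurod6, a bHLH gene of excitatory neurons, rose (0.30, adjusted p = 0.00880, limma), whereas Neurod2 did not pass (-0.07, adjusted p = 0.670). With libraries scaled by total reads 0 were lower and 3 higher, and 1 was lower without each of the 6 libraries in turn.

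**Figure D4:**
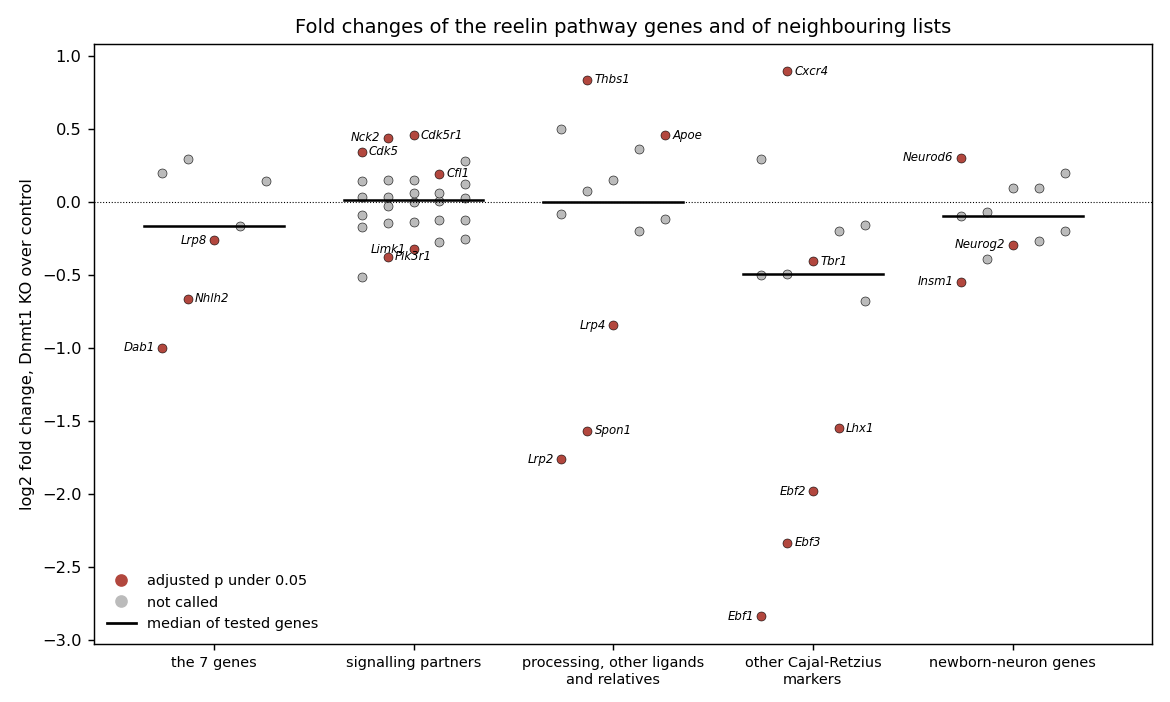
Log2 fold changes of Dnmt1 KO over control (y axis) for the 7 genes and for 4 lists of related genes (x axis). Each point is 1 tested gene, red points passed at an adjusted p under 0.05 and carry their names, and lines mark the list medians. The Cajal-Retzius list has its median at -0.50 and reaches -2.84 (Ebf1), while the signalling partners stay between -0.51 and 0.46.

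The genes most like each member over the 6 libraries are given as a description, since 6 points in 2 groups, with shared scaling, allow high values for many genes. Among genes with a mean of at least 50, Reln was most like Nudt19 (Pearson r = 0.986) and Gkap1 (0.980), and Dab1 most like Ptprz1 (0.998) and Ubap2l (0.997). Lrp8 was most like Nln (0.997) and Pcdhgc4 (0.996), and Vldlr most like Csf2ra (0.986) and Golga3 (0.986). Nhlh2 was most like the small nucleolar RNA gene Snord16a (0.997) and the guidance ligand gene Slit2 (0.993), Nhlh1 most like Tpp2 (0.982) and Pak6 (0.981), and Trp73 most like Stat2 (0.984) and Psme2 (0.953). A choice by correlation favours genes with the same group difference. Of the genes most like Dab1, Lrp8 or Nhlh2, Ptprz1 (log2 fold change -0.85), Ubap2l (-0.30), Nln (-0.58), Snord16a (-1.69) and Slit2 (-0.50) were called lower. Pcdhgc4 did not pass (-0.26, adjusted p = 0.0532, limma).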

How the data were processed

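Total RNA had been isolated from sorted tdTomato-positive cells and made into stranded total RNA libraries with ribosomal RNA depletion. Reads had been trimmed, aligned and quantified with the nf-core/rnaseq workflow on GRCm39. Versions in the submitters' processing notes (STAR 2.7.11b, Salmon 1.10.3, DESeq2 1.42.1) differ from those in the study's methods, and how molecular identifiers were treated was not given in those sources. The authors' deposited signal is gene counts divided by 1 size factor per library. Deposited tables of the authors' fold changes, p-values and enrichment were not used. All values were whole multiples of 1 step per library (100% of values, tolerance 0.001), so reads were recovered.

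Genes with a mean of at least 10 normalized counts (14126) were fitted as log2(normalized count + 1) with limma 3.58.1 (eBayes with trend, group only, R 4.3.3). Tests were two-sided with Benjamini-Hochberg adjustment, called under 0.05. Fold changes are on this scale and understate changes of low genes. edgeR 4.0.16, DESeq2 1.42.0 and limma-voom on the recovered reads, other scalings, filters, pseudocounts and left-out libraries were alternatives. Fits were checked on simulated data. Replicates differed by more than sampling noise (chi-square per gene 3.48 to 12.7), and none were merged. Gene positions and exon lengths were read from the GENCODE M39 annotation (GRCm39), which lacks 0.879% of listed genes.

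The members and lists were chosen with earlier results of these data known, and some genes of the list of other ligands and relatives are not reported here and were left out of its counts. Named genes are the 7 members, Dnmt1, up to 6 called genes and the 2 most abundant per kilobase of each neighbouring list, the most abundant and the most significant gene of each cell type list, and the 2 genes most like each member.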

Additional observations from a re-analysis of the deposited data

How the results depend on the processing

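Dab1 kept its call in all 19 alternatives. Without 1 library the log2 fold change ranged from -1.11 to -0.90 for Dab1, -0.32 to -0.20 for Lrp8, -0.79 to -0.54 for Nhlh2, 0.09 to 0.18 for Reln, 0.06 to 0.32 for Vldlr, 0.10 to 0.60 for Trp73 and -0.26 to -0.08 for Nhlh1. Between 1 and 3 of the 7 genes were then lower and 0 higher, of all genes 531 to 977 were higher and 1235 to 1527 lower, of the partners 2 to 4 higher and 1 to 3 lower, of the other ligands and relatives 1 to 2 higher and 3 lower, of the Cajal-Retzius markers 1 higher and 4 to 6 lower, and of the newborn-neuron genes 1 higher and 1 lower. The lowest counts of higher genes over all genes came without Dnmt1 KO replicate 2 (569) or 3 (531). Scaling by total reads, which moved the median of all genes to 0.27, gave 5046 higher and 1062 lower genes, 2 higher and 1 lower of the 7 genes, 15 higher and 0 lower partners, 4 higher ligands and relatives, and 3 higher and 0 lower newborn-neuron genes. It brought Reln to 0.40, Vldlr to 0.45, Lrp8 to -0.0024, Nhlh2 to -0.41 and Nhlh1 to 0.086. Quantile normalization brought Reln to 0.25, Lrp8 to -0.17 and Nhlh1 to 0.011, with 1 of the 7 genes higher and 1 newborn-neuron gene lower. The count of lower newborn-neuron genes was also 1 with DESeq2 and with no minimum mean. Higher partners numbered 2 with no minimum mean and with size factors from protein-coding genes, an alternative chosen after the data were seen, and lower Cajal-Retzius markers 3 with a minimum mean of 50, which leaves out low genes. The cause of these shifts was not tested.

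The replicate numbers of the titles did not pair the libraries (correlation of deviations between same-numbered libraries -0.02, 0.06 and -0.07 over 10010 genes). With the replicate number as a block Dab1, Lrp8 and Nhlh2 stayed lower (adjusted p = 0.000584, 0.0348 and 0.0276, limma), and 1 newborn-neuron gene was lower. Per kilobase of the longest transcript, levels moved by more than their spread for Reln, Dab1, Vldlr, Lrp8 and Nhlh2. Depth limits Nhlh1, Trp73 and Nhlh2 most, with 28 to 135 reads per library. No group had more than 3 libraries, so single outlying libraries were not tested for.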

Other observations

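Lists of other cells, chosen as markers of what the sort could hold, gave the following values. Over all tested genes 7.64% were higher and 11.6% lower. Of 12 genes of Sst-lineage interneurons 11 were higher in Dnmt1 KO. The transcription factor gene Maf had the smallest p of them (log2 fold change 0.75), and Lhx6, the most abundant per kilobase, rose by 0.33 on the log2 scale, while Sst itself, chosen after its values were seen, did not pass (0.14, adjusted p = 0.134, limma). Of 9 radial glia genes 6 were lower and 1 was higher. Fabp7, their most abundant gene per kilobase, had a log2 fold change of -0.67 and Nes one of -0.62. Of 5 genes of intermediate progenitors 2 were lower, among them the RNA-binding protein gene Elavl2 (-0.39). Of 8 genes of excitatory neurons 3 were lower and 1, Neurod6, was higher. Of 7 striatal projection neuron genes 5 were tested and 4 were lower, with Foxp1 (-0.85) the most abundant. All 5 diencephalic genes were lower, from Lhx2 (-0.38) and the Wnt effector gene Tcf7l2 (-4.55) to Gbx2, chosen after its values were seen, whose Dnmt1 KO libraries were at or under the floor. Of 7 tested genes of blood, vessel and microglial cells 1, the globin gene Hbb-bt (-0.47), was lower, while Hba-a1 was not called (-0.16, adjusted p = 0.449, limma). Of 8 cell cycle genes 7 were lower, among them Top2a with the smallest p (-0.63), whereas Pcna was not called (-0.10, adjusted p = 0.474, limma).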
